A study of Mus musculus with 3 samples.

Results

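The Notch genes described here are 10 rows of a single expression table, chosen by their gene symbols: the receptor genes Notch1, Notch2, Notch3 and Notch4, the ligand genes Jag1, Jag2, Dll1 and Dll4, and the target genes Hes1 and Hey1. All 10 were found, of 43346 genes in the table, 22032 of them protein-coding. RNA was sequenced from cultured stromal cells labelled as adipose-derived mesenchymal stem cells (MSCs), isolated from fat pads (adult mice, strain C57BL/6) and grown in medium with serum. The labels give a single group of 3 libraries, with no treatment, no second genotype and no named fat depot, so no comparison between conditions can be made. Nothing in them ties a library to an animal or a culture of its own, and the SDs may therefore hold technical variation only. Values are in RPKM, in which reads are divided by gene length and by library size, so that levels of different genes can be set side by side; detected means that each of the 3 libraries reached 1 RPKM.

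Notch signalling runs between touching cells. A Jagged or Delta-like ligand on one cell pulls on a Notch receptor of its neighbour, ADAM proteases and then gamma-secretase cut the receptor, and the freed intracellular part enters the nucleus, where it joins the DNA-binding protein RBPJ and Mastermind coactivators at target genes of the Hes and Hey families. In blood vessel walls JAG1 and NOTCH3 are known for their part in the development and upkeep of smooth muscle cells, and DLL4 and NOTCH4 for their part in the endothelium. In mesenchymal stromal cells and in fat tissue the pathway is known to influence differentiation.

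The labelled cell type was checked against its markers first. All 9 MSC markers were detected, led by the integrin gene Itgb1 at 329 ± 13.1 RPKM, Vcam1 at 56.6 ± 2.36 and Pdgfrb at 52.5 ± 0.383, with Nt5e the lowest at 1.15 ± 0.0916 (mean ± SD, n = 3 libraries, as for all such values below). Of the 10 endothelial markers 1 was detected, Kdr at 1.28 ± 0.0891, and the whole list summed to 3.22 to 3.51 RPKM per library, with Cldn5 listed at 0. Of 10 mural markers 6 were detected, led by Acta2 at 2328 ± 58.7, Tagln at 1164 ± 32.2 and Cnn1 at 199 ± 16.0 RPKM. Notch3, itself among the Notch genes described here, was counted in these 6. All 9 mesothelial markers and 6 of 9 macrophage markers were detected, their lists summing to 224 to 243 and to 41.4 to 43.3 RPKM per library. Upk1b led the mesothelial list at 70.1 ± 5.23 RPKM, above every MSC marker but Itgb1, and Lyz2 the macrophage list at 26.2 ± 1.51. The MSC and the mesothelial list were both detected in full, so detection did not tell these cell types apart. Of 9 adipocyte markers 1 was detected, Fabp4 at 1.82 ± 0.0797 RPKM, and Adipoq was listed at 0. No marker of the lymphocyte or the epithelial list was detected, the highest being Krt14 at 1.20, 1.21 and 0.870 RPKM, which passed without library 3. The keratin genes Krt18, Krt8 and Krt19, at 29.0, 18.2 and 4.08 RPKM, were counted in the mesothelial list and not in the epithelial one. In a bulk culture fewer cells that express a gene and less RNA of it per cell cannot be told apart, and which cells carried the Notch transcripts was not tested.

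Of the 10 Notch genes 5 were detected, namely Notch2, Notch3 and Notch1 of the 4 receptors, Jag1 of the 4 ligands and Hes1 of the 2 targets. The same threshold was passed by 47.4% of protein-coding genes and by 28.3% of all genes, so the share of the 10 was close to that of protein-coding genes at large. The median of their mean levels was 1.12 RPKM, against 0.812 RPKM over all protein-coding genes and 0.0464 RPKM over all genes. The group was uneven within itself: among the receptors, the ligands and the targets a single gene carried most of the transcript, and the means of the 10 genes ran from 0.00833 RPKM for Dll4 to 18.9 RPKM for Notch2.

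**Figure D1:**
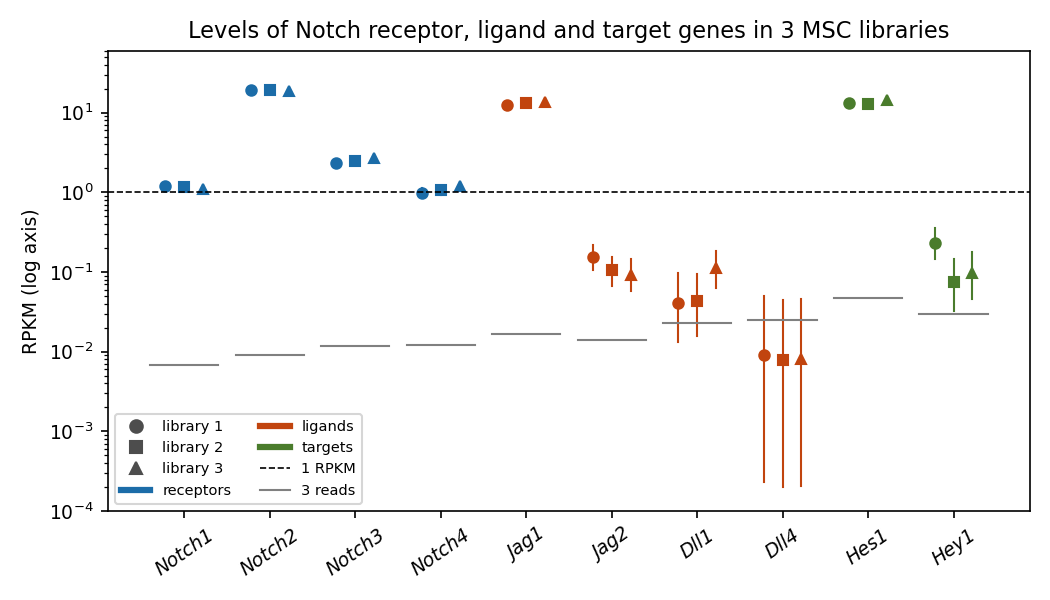
RPKM (log axis) of the 10 Notch genes in libraries 1, 2 and 3, coloured by role; vertical lines are exact 95% Poisson intervals from the inferred reads and cover counting error only, the dashed line is the detection threshold of 1 RPKM and each grey line is the level of 3 reads for that gene. Notch2, Jag1 and Hes1 sit above 12 RPKM in every library, the other receptors between 0.987 and 2.67, and Jag2, Dll1, Dll4 and Hey1 below 0.24.

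Notch2 was the leading receptor gene. It had 19.2, 19.1 and 18.5 RPKM in libraries 1, 2 and 3 (18.9 ± 0.369), drawn from 5958, 6789 and 6387 inferred reads. Its mean lay above that of 91.0% of protein-coding genes. The gene lies on the plus strand of chromosome 3 of mm10, 98013527 to 98150361, and its longest annotated transcript has 34 exons. The stretch just upstream of its annotated start (chr3:98013288-98013526, plus strand, from RefSeq on GRCm38, the assembly mm10 names) is shown because this promoter belongs to the highest Notch gene of the cells; capitals mark a match to CACGNG, a sequence that HES and HEY repressors can bind, counted on both strands.
Notch2: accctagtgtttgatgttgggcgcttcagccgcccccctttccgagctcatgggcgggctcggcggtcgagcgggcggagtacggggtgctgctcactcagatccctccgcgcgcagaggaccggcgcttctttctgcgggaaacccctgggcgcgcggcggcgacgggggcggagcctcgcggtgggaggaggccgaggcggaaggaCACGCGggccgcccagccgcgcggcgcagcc
This window had a GC content of 74.1% and a single CACGNG match.

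Notch3, the receptor best known from vascular smooth muscle, came next among the receptors, at 2.33, 2.50 and 2.67 RPKM (2.50 ± 0.171). Its values did not overlap those of Notch2, which stood 7.59 ± 0.653 times higher, nor those of Notch1 below it. Notch3 is on the minus strand of chromosome 17, 32120820 to 32166852. It was the lowest of the 6 detected mural markers. Of the markers of that list used for pericytes, Mcam stood above it at 16.7 ± 2.21 RPKM, and Cspg4 at 0.827 ± 0.0396, Kcnj8 at 0.271 ± 0.105, Rgs5 at 0.0688 ± 0.0336 and Abcc9 at 0.0181 ± 0.00803 RPKM stood below it.

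Notch1, the founding member of the family and a receptor used in many tissues, had 1.21, 1.16 and 1.12 RPKM (1.16 ± 0.0463; chromosome 2, minus strand, 26457903 to 26516663). Notch4, which is known mainly from endothelial cells, had 0.987, 1.06 and 1.19 RPKM (1.08 ± 0.105; chromosome 17, plus strand, 34564268 to 34588503). The values of both genes overlapped, and library 3 was the lowest for Notch1 and the highest for Notch4. Notch4 missed the detection threshold through library 1 alone, and without that library 6 of the 10 genes passed. With reads divided by the longest annotated transcript it passed in all 3 libraries, at 1.21, 1.29 and 1.46 RPKM. Its 229, 281 and 308 inferred reads place it far above the level of 3 reads. Of the endothelial markers, Kdr stood above Notch4 at 1.28 ± 0.0891 RPKM. The others stood below Notch4, with Esam the highest of them at 0.670 ± 0.0912 RPKM. Among these, Cdh5 had 0.657 ± 0.0480, Tek 0.317 ± 0.0578 and Pecam1 0.0174 ± 0.0110 RPKM. The part of endothelial cells in the Notch4 level was not tested.

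As a share of the summed RPKM of the 4 receptors, Notch2 made up 80.9%, 80.2% and 78.8% in libraries 1, 2 and 3 (79.9% ± 1.08). Notch3 supplied 10.6% ± 0.775, Notch1 4.91% ± 0.174 and Notch4 4.56% ± 0.473. The Notch2 share was lowest and the Notch3 and Notch4 shares were highest in library 3, and the sum of the 4 receptors was 23.7, 23.8 and 23.5 RPKM.

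Among the ligands Jag1 stood alone. It had 12.5, 13.1 and 13.6 RPKM (13.1 ± 0.549; 2094, 2523 and 2532 inferred reads) and lay above 86.6% of protein-coding genes. Jag1 encodes Jagged1, a ligand with a cysteine-rich region absent from the Delta-like proteins. It is on the minus strand of chromosome 2, 137081456 to 137116644, with 26 exons in the longest transcript. Of its promoter, the bases upstream of both the RefSeq and the GENCODE start are shown (chr2:137116645-137116770, minus strand), with capitals at the 2 matches to CACGNG, the first of them on the opposite strand, since Jag1 was the only ligand gene detected.
Jag1: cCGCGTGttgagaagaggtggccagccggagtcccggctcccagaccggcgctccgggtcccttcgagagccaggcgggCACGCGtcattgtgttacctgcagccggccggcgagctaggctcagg

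Jag2, the other Jagged gene, had 0.154, 0.105 and 0.0925 RPKM (0.117 ± 0.0327; chromosome 12, minus strand, 112907819 to 112929776). Within the libraries Jag1 exceeded it by factors of 80.9, 125 and 147. Dll1, the Delta-like ligand used in somites and in blood cell development, had 0.0412, 0.0431 and 0.111 RPKM (0.0651 ± 0.0398; chromosome 17, minus strand, 15367354 to 15376872), which corresponds to 5, 6 and 15 reads. Library 3 was the high one, and its counting interval of 0.0621 to 0.183 RPKM overlapped those of library 1 (0.0134 to 0.0960) and library 2 (0.0158 to 0.0938). Jag2 and Dll1 overlapped in level.

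Dll4, the Delta-like ligand of endothelial tip cells, was the lowest of the 10 genes. Its 0.00901, 0.00787 and 0.00811 RPKM correspond to 1 read in each library, under the level of 3 reads (0.0236 to 0.0270 RPKM), so Dll4 was not told from absent at this depth. The gene lies on the plus strand of chromosome 2, 119325784 to 119335962. The stretch upstream of its start (chr2:119325534-119325783, plus strand) is shown for contrast with those of Notch2 and Jag1, with the CACGNG match in capitals.
Dll4: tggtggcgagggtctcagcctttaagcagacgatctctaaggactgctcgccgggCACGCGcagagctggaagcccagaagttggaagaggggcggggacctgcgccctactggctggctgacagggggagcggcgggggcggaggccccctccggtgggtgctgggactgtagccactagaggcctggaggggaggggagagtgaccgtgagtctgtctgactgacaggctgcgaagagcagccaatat
A CACGNG match is thus present in the stretches of Dll4, Notch2 and Jag1 alike.

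Jag1 supplied 98.4%, 98.8% and 98.5% of the summed RPKM of the 4 ligands in libraries 1, 2 and 3 (98.6% ± 0.235), Jag2 0.892% ± 0.287, Dll1 0.485% ± 0.278 and Dll4 0.0631% ± 0.00694. The ligand sum was 12.7, 13.3 and 13.8 RPKM, lower than the receptor sum in every library, with a log2 ratio of ligands to receptors of -0.84 ± 0.07. Library by library the ratio was 0.535, 0.558 and 0.587.

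Hes1, a repressor of the basic helix-loop-helix class and a classic Notch target in many tissues, had 13.2, 12.8 and 14.3 RPKM (13.5 ± 0.786; 774, 862 and 935 inferred reads; chromosome 16, plus strand, 30064384 to 30067796). Its values overlapped those of Jag1 and lay under those of Notch2. Hey1, a target known from heart and vessels, had 0.234, 0.0743 and 0.0957 RPKM (0.135 ± 0.0867; chromosome 3, minus strand, 8663359 to 8667256). These correspond to 22, 8 and 10 reads. Library 1 was the high one; its counting interval of 0.147 to 0.354 RPKM lay just above that of library 2 (0.0321 to 0.146) and overlapped that of library 3 (0.0459 to 0.176). Within each library Hes1 exceeded Hey1, by factors of 56.4, 173 and 150.

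The rest of the Hes and Hey family placed both targets in context. Of 8 further genes 1 was detected, Hes6 at 3.47 ± 0.131 RPKM, whose product is known to oppose HES1. Hey2 had 0.545, 0.797 and 0.429 RPKM, Hes7, an oscillator gene of the embryonic somites, 0.133 ± 0.0685, and Heyl 0.0953 ± 0.0322. Hes5, Helt and Hes3 had about 1 read in a single library, and Hes2 was listed at 0 in all 3. Hes1 made up 74.9%, 73.6% and 77.0% of the summed RPKM of these 10 genes, Hes6 19.4% ± 0.636, Hey2 3.32% ± 1.15 and Hey1 0.756% ± 0.498.

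**Figure D2:**
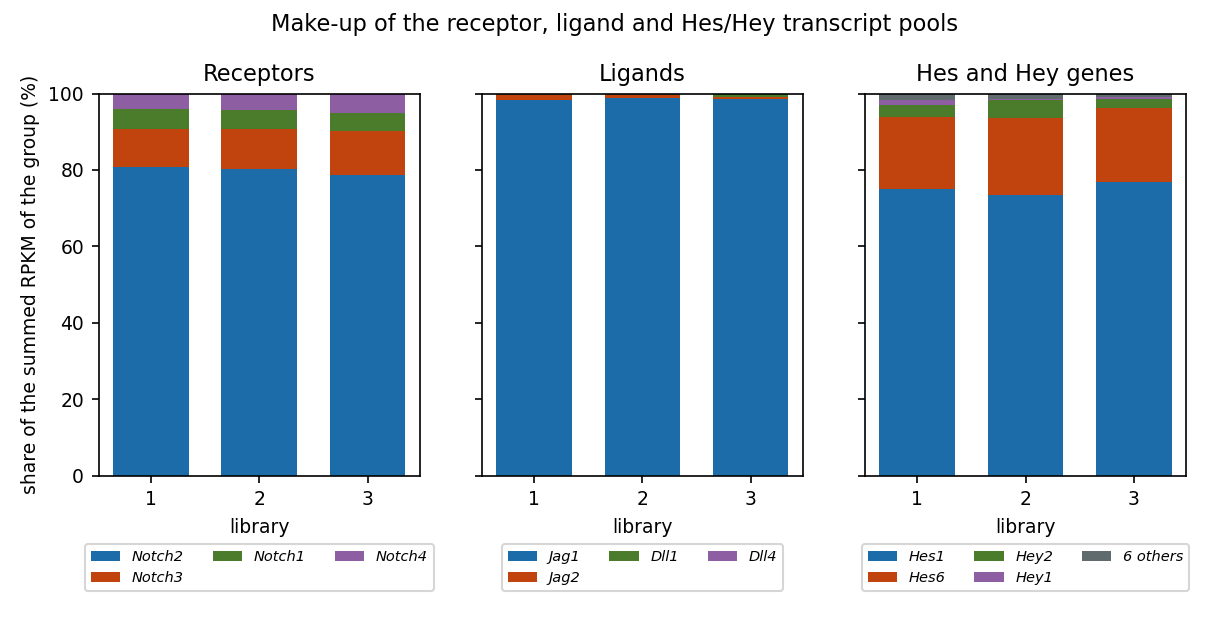
Stacked bars of the share of the summed RPKM (%) that each gene held in libraries 1, 2 and 3, for the 4 receptors, the 4 ligands and the 10 Hes and Hey genes; the 6 lowest Hes and Hey genes are drawn together. Notch2 fills 78.8% to 80.9%, Jag1 98.4% to 98.8% and Hes1 73.6% to 77.0% of their bars.

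In the order of mean level, Notch2 came first, followed by Hes1, Jag1, Notch3, Notch1, Notch4, Hey1, Jag2, Dll1 and Dll4. Of the 9 neighbouring pairs 5 were apart, the lowest value of the higher gene exceeding the highest value of the lower one: Notch2 over Hes1, Jag1 over Notch3, Notch3 over Notch1, Notch4 over Hey1, and Dll1 over Dll4. Dll1 and Dll4 were apart by their values only, since their counting intervals overlapped in libraries 1 and 2, though not in library 3. Hes1 and Jag1, Notch1 and Notch4, Hey1 and Jag2, and Jag2 and Dll1 did not differ beyond their spread. No p is given for the order, since an exact sign test over 3 libraries cannot give less than p = 0.25. Leaving out Dll4, which had 1 read per library, the widest steps in mean level were those of Notch4 over Hey1, at 8.02-fold, and of Jag1 over Notch3, at 5.22-fold. Without library 3, Notch1 over Notch4 and Jag2 over Dll1 were apart too, making 7 pairs. The place of Hes1 depended on gene model length. With the inferred reads divided by the longest annotated transcript, Hes1 stood at 18.7 ± 1.09 and Notch2 at 19.4 ± 0.379 RPKM and these overlapped, while Hes1 over Jag1 and Notch1 over Notch4 were then apart.

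The spread between libraries was set beside that of other genes. The SD was 1.95% of the mean for Notch2, 3.99% for Notch1, 4.21% for Jag1, 5.84% for Hes1, 6.81% for Notch3 and 9.76% for Notch4. The median of these 6 genes with a mean of 1 RPKM or more was 5.02%, against 5.04% over 10677 protein-coding genes above the same mean; without library 3 the median of the 6 was 3.11%. Counting alone would give 1.25% for Notch2, 2.05% for Jag1, 3.42% for Hes1 and 4.40% for Notch1, so the observed spread was 1.56, 2.05, 1.71 and 0.906 times the counting error in these genes. For Hey1 the SD was 64.4% of the mean and 2.35 times the counting error, the widest excess of the 10.

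**Figure D3:**
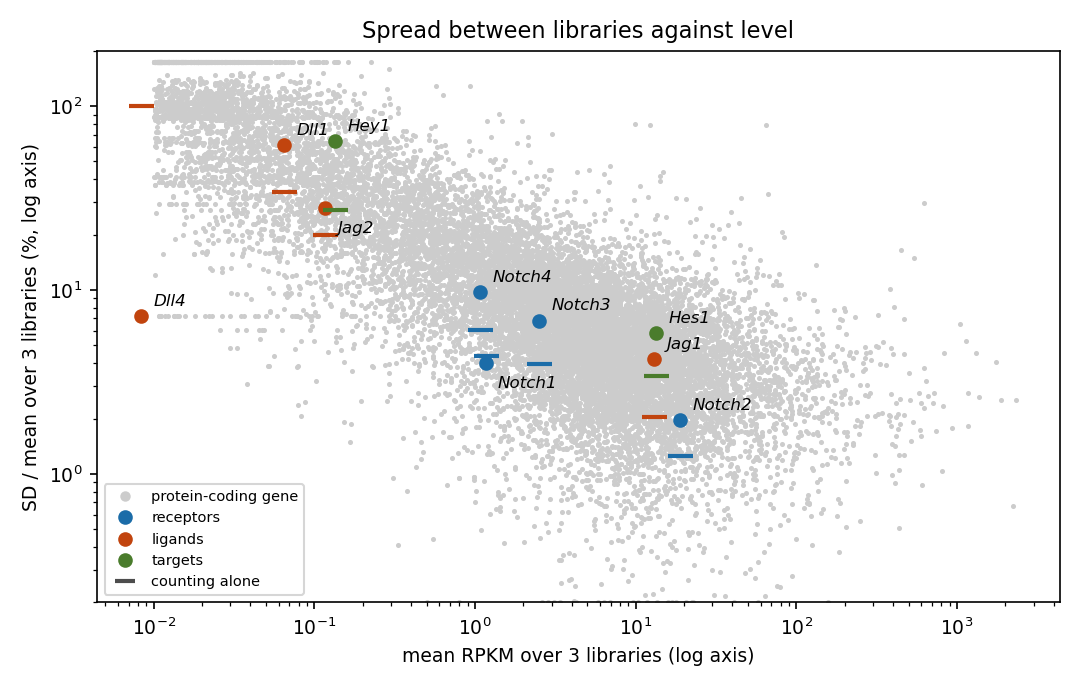
SD over mean (%) against mean RPKM over the 3 libraries (both log axes) for protein-coding genes with a mean of at least 0.01 RPKM in grey and the 10 Notch genes in colour; horizontal dashes give the value that counting alone would give each. The Notch genes other than Dll4 lie within the grey cloud, from 1.95% for Notch2 to 64.4% for Hey1. Dll4, with 1 read in each library and a mean of 0.00833 RPKM, lies to the left of the grey points. Its value of 7.22% only reflects the library sizes.

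The other genes of the pathway were followed through 8 lists drawn up by function, with earlier results of these data known. The shares below therefore describe these lists only. Of 81 genes 57 were detected (70.4%), against 47.4% of protein-coding genes and 28.3% of all genes. The median mean level of the 81 was 5.15 RPKM. Of 5 genes for enzymes that modify Notch in the secretory pathway 4 were detected, at similar levels. The O-glucosyltransferase gene Poglut1 had 4.57 ± 0.154 and the O-fucosyltransferase gene Pofut1 3.86 ± 0.0672 RPKM. The Fringe genes Lfng and Rfng, which extend O-fucose and alter the choice of ligand, had 3.62 ± 0.0652 and 3.08 ± 0.119 RPKM. Mfng had 0.0116, 0 and 0.0110 RPKM, at most 1 read per library. Of the Fringe transcripts Lfng supplied 54.0% ± 1.34 and Rfng 45.8% ± 1.44.

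Of 10 genes for receptor cleavage 9 were detected. The protease gene Adam10, which cuts the ligand-bound receptor, led with 30.5 ± 0.547 RPKM, and the gamma-secretase gene Ncstn had 24.9 ± 1.10 and the convertase gene Furin 11.0 ± 0.109. Aph1c was the lowest at 0.198 ± 0.0677; it has a close paralogue in Aph1b (1.43 ± 0.0734), and how the authors' counting split reads between them is not given in the sources used here.

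The nuclear partners of Notch were represented by 7 of 8 genes. Rbpj, the DNA-binding partner, had 9.42, 8.45 and 8.85 RPKM (8.91 ± 0.489). The splicing factor and coactivator gene Snw1 led at 27.9 ± 0.925, followed by the acetyltransferase gene Crebbp at 14.9 ± 0.602. Of the Mastermind genes, Maml2 had 9.52 ± 0.507 and Maml1 7.98 ± 0.385, and Maml3 was the lowest of the list at 0.921 ± 0.0428 RPKM. All 14 genes listed as corepressors were detected, among them Fhl1 at 35.5 ± 0.846, Ctbp1 at 32.6 ± 0.645 and Hdac1 at 17.4 ± 0.278, with Tle2 the lowest at 1.53 ± 0.140.

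Among the regulators of ubiquitination and endocytosis 10 of 14 were detected. Mib1, the ligase that primes ligands for signalling in the sending cell, had 15.3 ± 0.445 RPKM, the inhibitor gene Numb 9.94 ± 0.289, its relative Numbl 7.98 ± 0.306 and Dtx3 6.95 ± 0.681, while Dtx1 was the lowest at 0.0671 ± 0.0213. Of 7 further ligand genes, non-canonical ones included, 1 was detected, Nov, at 2.61 ± 0.270 RPKM. Dlk1, an inhibitor of fat cell formation, had 0.688, 0.863 and 0.685, Egfl7 0.305 ± 0.0921 and Dlk2 0.234 ± 0.0716. Cntn1 was the lowest at 0.0113 ± 0.00507, and Dll3 had 1, 2 and 1 reads.

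Genes reported as Notch targets in one tissue or another were spread over the whole range, 11 of 16 being detected. The smooth muscle genes Acta2, Cnn1 and Myh11, also counted as mural markers above, led this list, Myh11 with 134 ± 10.3 RPKM. Cdkn1a, which encodes a cell cycle inhibitor, had 64.7 ± 1.87 RPKM. Each of these has other regulators besides Notch. Nrarp, a feedback inhibitor that is switched on by Notch in many tissues, had 0.0538, 0.0822 and 0.121 RPKM, or 4, 7 and 10 reads. The T cell genes Ptcra and Il2ra were listed at 0. Hes1 at 13.5 RPKM stood above Hey1, Heyl, Nrarp and Dtx1, which were all at or below 0.234 RPKM in every library. Hey2, which reached 0.797 RPKM, was lower too. Other genes of the list stood above Hes1, with Pdgfrb at 52.5, Efnb2 at 33.5, Nfkb2 at 17.3, Snai2 at 16.7 and Myc at 14.65 RPKM. Ccnd1 at 7.34, Bcl2 at 1.58 and Gata3 at 0.871 RPKM stood below it. All these genes were set side by side after their values were seen.

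**Figure D4:**
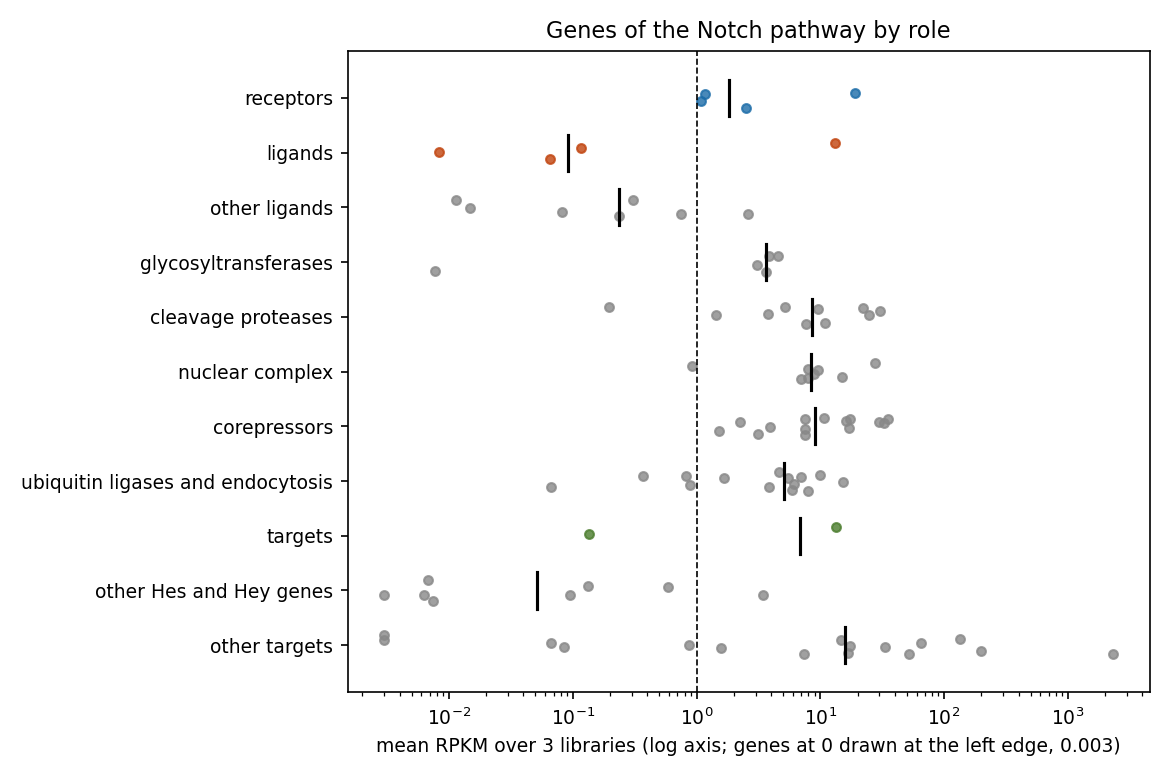
Mean RPKM over the 3 libraries (log axis) of each gene, by role in the Notch pathway; coloured points are the 10 Notch genes, grey points the other genes, black bars the list medians and the dashed line 1 RPKM. Cleavage, nuclear and corepressor genes have medians of 8.62, 8.45 and 9.10 RPKM, with single genes spread widely around them. The canonical ligands and the further Hes and Hey genes have medians of 0.0911 and 0.0514 RPKM.

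For the leading gene of each class, the protein-coding genes of most like level were found by Euclidean distance on log2(RPKM + 1) over the 3 libraries. Nearest to Notch2 were Sec24c, at 19.1 ± 0.310 RPKM and a distance of 0.0325, then Ctsa and Ehmt2. Nearest to Jag1 were Smek1, at 13.1 ± 0.420 RPKM and a distance of 0.0271, then Npdc1 and Vapb. Nearest to Hes1 were Nr1h2, at 13.5 ± 0.993 RPKM and a distance of 0.0337, then Bag5 and 2200002D01Rik. With 3 libraries of a single group this likeness is one of level.

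The position and promoter sequences of the 10 genes were not used to choose them. Notch1, Jag1 and Dll4 lie on chromosome 2, Notch3, Notch4 and Dll1 on chromosome 17, Notch2 and Hey1 on chromosome 3, Jag2 on chromosome 12 and Hes1 on chromosome 16. 5 of the 10 share exon bases with another annotated gene, in 6 pairs. The largest overlap in bases was that of Notch1 with 0610009E02Rik on the opposite strand, over 1068 bases or 7.50% of its exon length. The largest as a share of exon length was that of Dll1 with A930024N18Rik, also on the opposite strand, over 867 bases or 20.6%, and the highest value of any exon-sharing gene in the table was 0.2503 RPKM for 0610009E02Rik. The labels do not say that counting used strand, so reads in shared stretches cannot be told apart.

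RefSeq promoter windows, from 250 bases before to 50 after the start, were found for 8 of the 10 genes, 9 windows in all since Dll1 has 2. GTGGGAA, a sequence bound by RBPJ, was in none of them on either strand, and 6.38% of 32851 promoter windows of the same length held it. CACGNG was in the windows of Notch2, Notch3, Jag1, Jag2, Dll1 and Dll4, against 27.5% of all windows, and was not in those of Notch1 and Notch4. The GC content of the windows ran from 55.7% for Jag1 to 86% for Jag2. All 9 windows thus lay above the median of 52.7% over all promoters, those of Dll1 and Dll4 included. CACGNG itself holds a CG pair. The number of CG pairs over that expected from base content had a median of 0.384 over all promoters. Every window lay above it but that of Notch4, at 0.214. The part of base composition in the CACGNG matches was not tested.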

How the data were processed

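The authors deposited 1 table of RPKM values for the 3 libraries; per the labels' protocols, total RNA was purified with the miRNeasy kit and libraries made with the TruSeq V2 kit. The submitters' processing notes name the build mm10. For the aligner, counter and annotation, no name was given in the sources used here. Read totals were inferred from the steps of low values with GENCODE M21 exon lengths: library 1 had 28816400, library 2 32990700 and library 3 32027400. Of 10011 genes with fewer than 10 reads, 84.6% then lay within 0.05 of whole reads in every library. Dll1, Dll4 and Hey1 gave whole reads. Jag2 did not, at 30.9, 24.1 and 20.6 reads, so the length the authors used may differ from the one used here. The other Notch genes had 229 inferred reads or more in each library. At such numbers a small error in the inferred total moves values off whole reads, so their lengths could not be checked this way. Inferred reads and counting errors of these genes and of Jag2 are approximate. Intervals (exact Poisson, 95%) and the floor of 3 reads cover counting error only. The total-recovery step was tested on simulated data.

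The 10 genes and the gene lists were chosen with earlier results of these data known. Named genes were all 10, up to 4 highest, the lowest and those at 0 of each pathway list, up to 3 highest and the lowest of each marker list, the 3 genes nearest in level to each leading gene and overlapping genes; some of these are not reported here, and other genes in the text were named after their values were seen. All listed symbols were matched, Adgre1 under an older symbol. No test between groups was possible. Alternatives were other thresholds, pseudocounts, filters, scalings and gene lengths and leaving out each library. A planned comparison of the proteins was not made, and the promoters of Hes1 and Hey1 were not analysed here. Software: matplotlib 3.10.9, scipy 1.17.1, pandas 2.3.3, numpy 2.4.6 and Python 3.11.15.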

Additional observations from a re-analysis of the deposited data

How the results depend on the processing

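No paired analysis was possible because the 3 libraries form a single group. The count of 5 detected Notch genes became 6 at 0.5 RPKM and on the mean and 4 at 2 RPKM; rescaling to TPM left 3, since a single small RNA row holds 80.6% to 86.1% of the summed RPKM by which TPM divides. Over the libraries left out in turn, the count was 5 to 6, the detected pathway genes numbered 57 each time and the detected marker genes 32 to 33, the Notch2 share was 79.5% to 80.5%, the Jag1 share 98.4% to 98.6%, the Hes1 share 74.2% to 75.9%, the log2 ratio of ligands to receptors -0.87 to -0.81, the neighbouring pairs that were apart 5 to 7, and the median spread 3.11% to 5.91%. With the longest transcript length the shares of Notch2, Jag1 and Hes1 were 77.7%, 98.2% and 77.2%. Adding 0.1 RPKM gave Jag1 96.4% and Hes1 71.7%, and adding 1 RPKM gave Notch2 72.0%, Jag1 81.5%, Hes1 51.8% and a log2 ratio of -0.68, by construction, since the addition weighs most on low genes. With values below 0.1 RPKM set to 0, Jag1 held 99.1%. Under both other scalings and with each library left out in turn, all 50 recomputed levels of the 10 genes moved by under 1 SD. For the libraries left out this was fixed in advance, since dropping 1 of 3 values cannot move their mean by 1 SD. The longest transcript length moved levels further, to 1.74 RPKM for Notch1 and 1.32 RPKM for Notch4, which then passed the threshold. The order of means was the same in 5 of 6 settings, that length included; without library 1, Jag2 stood above Hey1. Depth limits what can be said of Dll4, Dll1 and Hey1.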
